A study of Mus musculus with 6 samples.

Results

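Metallothioneins and zinc transporters were examined in mouse liver after ischemia and reperfusion (I/R), with and without ginsenoside Rk2. The genes were taken by name from the deposited tables: the metallothioneins Mt1 and Mt2, their transcription factor Mtf1, the ZIP importers Slc39a14, Slc39a4, Slc39a8 and Slc39a1, and the ZnT exporters Slc30a1, Slc30a10 and Slc30a7. All 10 were found, out of 15454 genes in the count table, and all 10 were among the 12411 genes that had enough reads to be tested. The livers came from male C57BL/6 mice aged 8 to 10 weeks, and every mouse, controls included, had warm I/R of 75% of the liver. Of the 6 mice, 3 received vehicle (I/R) and 3 received ginsenoside Rk2 (I/R+Rk2), a saponin of processed ginseng, ahead of surgery and once more as perfusion began. Sham-operated livers were not analysed here, so the values compare treated with untreated injured livers and give no uninjured level.

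Metallothioneins are small cysteine-rich proteins that bind zinc and copper, and in liver they are classically induced by zinc, by glucocorticoids and during the acute-phase response. MTF-1, the protein encoded by Mtf1, senses free zinc and binds metal response elements (MREs) in the promoters of metallothionein genes and of Slc30a1. ZIP proteins carry zinc and related metals into the cytosol, and ZnT proteins carry them out of it, either across the plasma membrane or into organelles.

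The promoters of the metallothioneins and of Slc30a1 are shown because MREs are known in these genes. The promoter of Slc30a10 is shown only because the search found matches in it. Windows from 250 bases before to 50 bases after each RefSeq start (GRCm38.p6) were matched for 8 of the 10 genes, in 9 windows, and Slc39a14 and Slc39a4 had no entry. The core was searched as TGCACNC and TGCGCNC on both strands, and capitals mark the matched bases. All 4 windows lie on the plus strand, at chr8:94178839-94179138 for Mt1, chr8:94172368-94172667 for Mt2, chr1:191906531-191906830 for Slc30a1 and chr1:185454598-185454897 for Slc30a10.
Mt1: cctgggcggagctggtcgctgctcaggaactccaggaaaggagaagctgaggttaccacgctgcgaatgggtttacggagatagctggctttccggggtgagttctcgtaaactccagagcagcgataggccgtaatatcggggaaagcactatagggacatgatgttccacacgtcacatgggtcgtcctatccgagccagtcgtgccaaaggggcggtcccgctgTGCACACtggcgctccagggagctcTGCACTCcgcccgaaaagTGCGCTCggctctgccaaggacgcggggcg
Mt2: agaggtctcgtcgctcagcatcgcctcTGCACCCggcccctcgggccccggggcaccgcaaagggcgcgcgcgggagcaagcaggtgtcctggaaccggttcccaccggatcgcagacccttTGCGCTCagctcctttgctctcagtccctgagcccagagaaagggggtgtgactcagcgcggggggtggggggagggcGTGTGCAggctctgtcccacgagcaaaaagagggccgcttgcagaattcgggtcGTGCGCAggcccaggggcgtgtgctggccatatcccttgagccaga
Slc30a1: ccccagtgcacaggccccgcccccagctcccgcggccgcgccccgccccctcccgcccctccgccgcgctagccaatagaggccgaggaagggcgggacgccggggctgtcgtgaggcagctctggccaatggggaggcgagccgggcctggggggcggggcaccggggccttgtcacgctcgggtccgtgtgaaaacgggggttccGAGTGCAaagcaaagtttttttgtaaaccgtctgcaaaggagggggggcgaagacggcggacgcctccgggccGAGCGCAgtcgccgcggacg
Slc30a10: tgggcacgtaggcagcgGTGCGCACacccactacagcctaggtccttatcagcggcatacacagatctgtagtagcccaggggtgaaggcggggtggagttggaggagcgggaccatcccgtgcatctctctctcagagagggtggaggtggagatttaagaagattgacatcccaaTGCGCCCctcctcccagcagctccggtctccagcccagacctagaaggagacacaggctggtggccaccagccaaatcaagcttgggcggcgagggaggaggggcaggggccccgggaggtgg

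The Mt2 window held 4 matches, beginning at positions -223, -128, -50 and 5 from the RefSeq start. The Mt1 window held 3, at -23, 3 and 21. The gene start given below for Mt2, 94172664, lies downstream of its RefSeq start, so positions depend on the start used. Mt1 has 3 annotated transcripts, and its window ends 50 bases after the RefSeq start. Bases further downstream were not searched, so the window counts do not rank the whole promoters of Mt1 and Mt2. Slc30a10 had 3 matches, of which those at -233 and -232 lie on opposite strands and overlap, and Slc30a1 had 2, at -43 and 31. One of the pair of Slc39a8 starts had 1 match and the other had 0. The windows of Mtf1, Slc30a7 and Slc39a1 had 0 matches. Of all 32851 windows of the same length, 25.7% held at least 1 match, 7.11% at least 2, 1.97% at least 3 and 0.517% at least 4. A match is a run of letters and not a measured binding site.

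**Figure D1:**
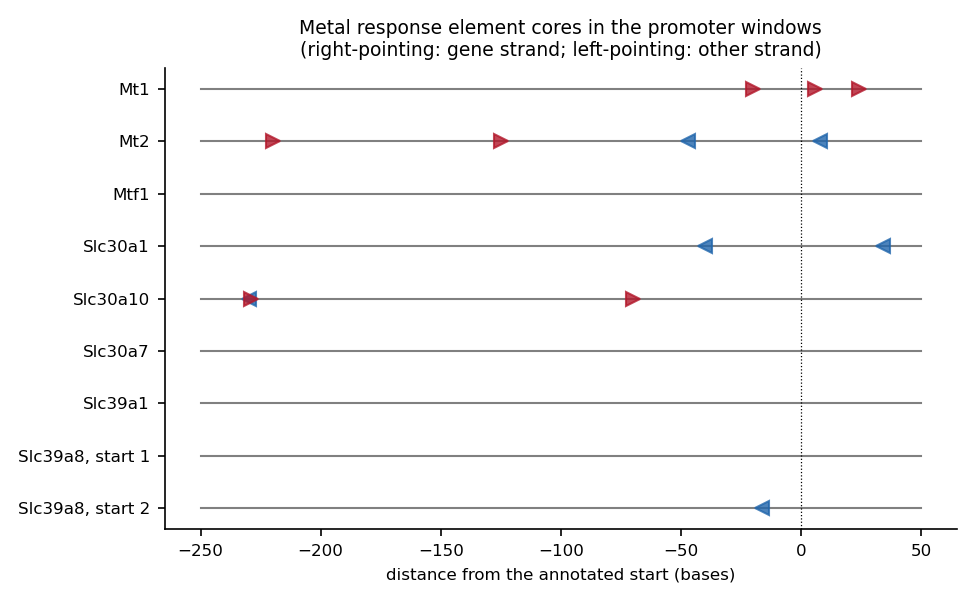
Positions of MRE core matches, as the distance in bases from the annotated start, in the 9 promoter windows of 8 genes. Triangles pointing right lie on the gene's strand and those pointing left on the other strand. Within these windows Mt2 carries 4 matches and Mt1 3, whereas Mtf1, Slc30a7 and Slc39a1 carry 0.

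The deposited counts summed to 16809613 to 35618074 per liver, and the level that 3 counts stand for was 0.0888 to 0.184 counts per 1e+06 of the scaled library total (CPM), far below every level given for the 10 genes. Libraries were scaled with TMM factors (trimmed mean of M values), which were 1.01 to 1.14 in I/R and 0.914 to 0.975 in I/R+Rk2. Scaling by library size alone moved the median log2 fold change of all tested genes from -0.01 to -0.17. Of the hepatocyte markers listed, 9 of 10 were found by name and all 9 were tested, and their summed level was 68570 to 80797 CPM in I/R and 104038 to 128242 CPM in I/R+Rk2, so the defining markers of the labelled tissue were abundant. Each library is labelled with tissue, group and a number, and was taken as the liver of a separate mouse. On that reading the errors describe the spread between livers.

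Of the 10 genes, 8 passed the edgeR test at an adjusted p below 0.05. Lower in I/R+Rk2 were 6 (Mt1, Mt2, Mtf1, Slc39a14, Slc39a1 and Slc30a7), and 2 were higher (Slc39a8 and Slc30a10). Over all tested genes, 43.9% passed, 23.7% lower and 20.3% higher, so a passing call alone was common in this comparison. A fold change above 2 was reached by 3 of the 10 (Mt1, Mt2 and Slc39a14), against 14.6% of all tested genes. The groups of livers did not overlap in 9 of the 10 genes, against 57.4% of all tested genes. The median log2 fold change was -0.48 over the 10 genes and -0.01 over all genes tested. With limma on log2(FPKM + 1), where FPKM are the deposited fragments per length of transcript and depth of library, 5 of the 10 passed.

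Both metallothionein transcripts fell by close to 4-fold. Mt1 (chromosome 8, 94179082 to 94180327, GRCm38) had 997, 885 and 762 CPM in I/R and 233, 206 and 226 CPM in I/R+Rk2. The lowest I/R liver stood above the highest I/R+Rk2 liver by a wide margin. The group means were 882 ± 117 and 222 ± 13.9 CPM (SD, n = 3), and the log2 fold change was -1.99 (standard error 0.12, 95% interval -2.28 to -1.70, edgeR adjusted p = 0.00024). Mt2 (chromosome 8, 94172664 to 94173568), which ends 5513 bases upstream of Mt1 on the same strand, had 1106, 958 and 919 CPM in I/R and 292, 224 and 231 CPM in I/R+Rk2. Its groups did not overlap either, and in both genes I/R replicate 1 was the highest liver. The means were 994 ± 99.1 and 249 ± 37.7 CPM (SD, n = 3), with a log2 change of -2.0 (standard error 0.14, 95% interval -2.32 to -1.67, edgeR adjusted p = 0.00024).

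The metallothioneins were also the most abundant transcripts of the set per length. In FPKM, Mt2 had 2324, 1806 and 1715 in I/R and 527, 392 and 392 in I/R+Rk2, while Mt1 had 1908, 1524 and 1308 in I/R and 377, 314 and 331 in I/R+Rk2. Both genes together held 0.680, 0.514 and 0.453% of all FPKM in I/R and 0.138, 0.113 and 0.109% in I/R+Rk2. Among 21948 rows of the FPKM table, Mt1 ranked 58 to 68 from the top in I/R and 170 to 202 in I/R+Rk2, and Mt2 ranked 54 to 60 and 118 to 165. Each gene's part of their sum was also compared. Mt1 made up 44.7 ± 1.29% of their summed FPKM in I/R and 44.0 ± 2.08% in I/R+Rk2 (SD, n = 3), a difference of -0.71 percentage points (two-sided exact permutation test, p = 0.7). With 3 livers against 3 the smallest p is 0.1, so this test could not have passed and does not show that the share was equal. The 2 genes shared 0 of their 31-base words, so no read of that length could be placed on both. Exons of Mt2 overlap those of the antisense gene Gm45774 over 432 of 588 bases, and without a stated strand setting their reads cannot be told apart. The minor metallothioneins Mt3, a form best known from brain, and Mt4, one of stratified epithelia, had too few reads to be tested, with at most 9 counts in any liver.

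**Figure D2:**
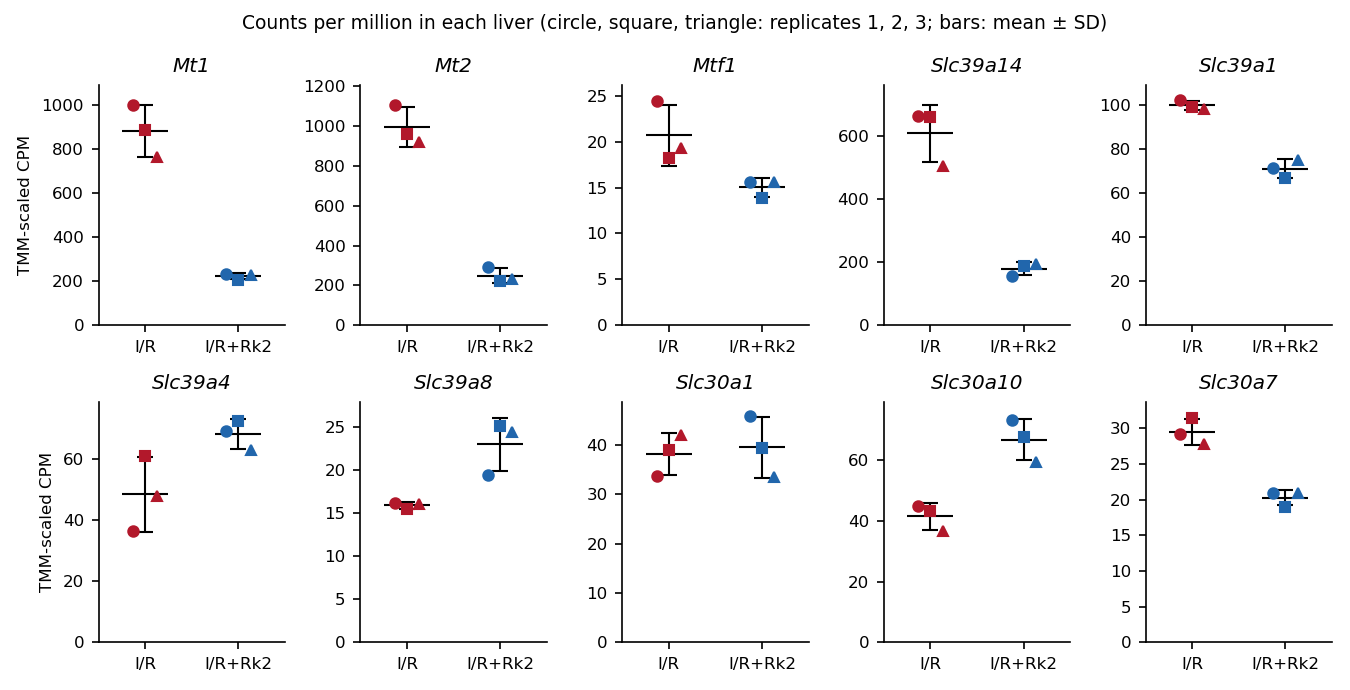
TMM-scaled CPM of the 10 genes in each liver, with symbols for replicates 1 to 3 and bars for mean ± SD (n = 3). Mt1, Mt2 and Slc39a14 show the widest gap between I/R (red) and I/R+Rk2 (blue), and Slc30a1 is the one gene whose groups overlap.

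Mtf1 (chromosome 4, 124802104 to 124849800), the zinc-sensing regulator, was lower by a much smaller amount. Its level was 24.5, 18.3 and 19.3 CPM in I/R and 15.6, 13.9 and 15.6 CPM in I/R+Rk2. The groups did not overlap, and I/R replicate 1 stood above the other I/R livers. The means were 20.7 ± 3.31 and 15.0 ± 1.02 CPM (SD, n = 3), a log2 change of -0.46 (standard error 0.14, edgeR adjusted p = 0.0317). Without I/R replicate 1 the log2 fold change was -0.31 (adjusted p = 0.0958), and with the trend on transcript length removed it was -0.16 (adjusted p = 0.331). Mtf1 shares 721 of its 8907 exon bases with 1110065P20Rik on the opposite strand.

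Of 4 other genes described as targets of MTF-1, 1 was lower, 1 was higher and 2 did not pass. Over all tested genes, 23.7% were lower and 20.3% higher. Gclc, the catalytic subunit of the enzyme that begins glutathione synthesis, had 1249, 1334 and 1023 CPM in I/R and 360, 397 and 422 CPM in I/R+Rk2. That is a log2 change of -1.61 (standard error 0.13, edgeR adjusted p = 0.000366), and the groups lay far apart. Selenow, a small selenoprotein, rose by 0.52 on the log2 scale (adjusted p = 0.00332). Csrp1 and Ndrg1 had log2 changes of 0.13 (adjusted p = 0.522) and 0.08 (adjusted p = 0.759), and both signs turned with library size alone, to -0.02 and -0.09. The median over the 4 genes was 0.11, against -0.01 over all genes.

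Among the 4 importers of the set, the largest difference was that of Slc39a14, which encodes ZIP14, a carrier of zinc, manganese and iron that is known to be induced in hepatocytes by interleukin-6. Slc39a14 (chromosome 14, 70303469 to 70351425, minus strand) had 664, 659 and 504 CPM in I/R and 156, 188 and 193 CPM in I/R+Rk2. I/R replicate 3 was the lowest liver of its group and still stood well above every I/R+Rk2 liver. The means were 609 ± 90.8 and 179 ± 20.4 CPM (SD, n = 3), which is 3.40-fold lower, with a log2 change of -1.77 (standard error 0.14, 95% interval -2.11 to -1.43, edgeR adjusted p = 0.000373).

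The other 3 importers changed less, and not in the same direction. Slc39a1 (chromosome 3, 90248172 to 90253612), which encodes the plasma membrane importer ZIP1, had 102, 99.0 and 98.2 CPM in I/R and 71.6, 66.8 and 75.1 CPM in I/R+Rk2. The livers of each group lay close together, and the log2 fold change was -0.49 (standard error 0.08, edgeR adjusted p = 0.00335). Of its 31-base words, 27.7% occur in other genes too, mostly the pseudogene Slc39a1-ps, so its level is uncertain to the extent that reads were divided between them. Slc39a8 (chromosome 3, 135825279 to 135888572), which encodes ZIP8, a carrier of zinc and manganese, had 16.2, 15.5 and 16.1 CPM in I/R and 19.5, 25.2 and 24.4 CPM in I/R+Rk2. I/R+Rk2 replicate 1 was nearest to the I/R livers, and the log2 fold change was 0.53 (standard error 0.12, adjusted p = 0.0125). The call was lost with library size alone, at 0.36 (adjusted p = 0.0688), and with limma on log2(FPKM + 1), at 0.30 (adjusted p = 0.113).

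Slc39a4 (chromosome 15, 76612383 to 76617384, minus strand), which encodes ZIP4, best known as the importer of dietary zinc in the intestine, did not pass the test. It had 36.4, 61.0 and 47.7 CPM in I/R and 69.1, 72.5 and 62.9 CPM in I/R+Rk2. The groups did not overlap, but the I/R livers were widely spread and I/R replicate 2 came close to I/R+Rk2 replicate 3. On the log2 scale the difference was 0.49 with a 95% interval of 0.07 to 0.92 (edgeR adjusted p = 0.0591). Without I/R replicate 2 it was 0.70 (adjusted p = 0.015), and DESeq2 on all 6 livers gave 0.51 (adjusted p = 0.0371).

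The make-up of the ZIP transcripts shifted with these changes. The summed FPKM of the ZIP family was 339, 324 and 269 in I/R and 160, 166 and 159 in I/R+Rk2. Slc39a14 supplied 57.9 ± 2.96% of that sum in I/R and 29.4 ± 3.93% in I/R+Rk2 (SD, n = 3). Slc39a4 supplied 6.95 ± 1.57% and 16.8 ± 1.35%, and Slc39a1 supplied 13.6 ± 1.16% and 16.5 ± 1.26%. Shares of one sum depend on each other, so a higher share of Slc39a1 in I/R+Rk2 stands beside a lower level of the gene itself.

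**Figure D3:**
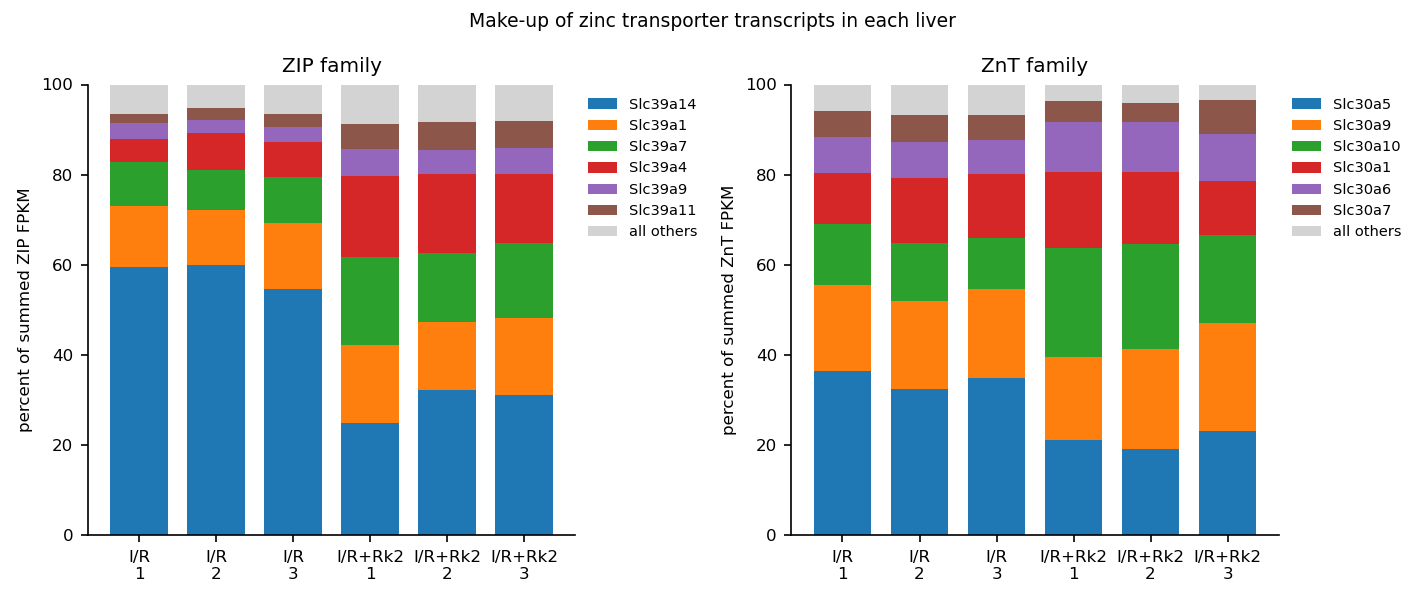
Percent of the summed FPKM of the ZIP family (left) and the ZnT family (right) held by each gene in each of the 6 livers, with genes of small share pooled as all others. Slc39a14 holds over 54% of the ZIP sum in every I/R liver and under 33% in every I/R+Rk2 liver, and Slc30a10 holds a larger part of the ZnT sum in every I/R+Rk2 liver.

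Of the other ZIP genes, 7 of 10 could be tested, and 1 was higher, 2 were lower and 4 did not pass. The shares over all tested genes were 20.3% higher and 23.7% lower. Slc39a10, which encodes a plasma membrane zinc importer, went from 18.4 ± 2.39 to 4.38 ± 0.484 CPM (SD, n = 3), with a log2 change of -2.07 (edgeR adjusted p = 0.000265). Slc39a6, its close relative, went from 12.0 ± 2.05 to 2.96 ± 0.898 CPM, with a log2 change of -2.01 (adjusted p = 0.00112). In both genes every I/R liver stood above every I/R+Rk2 liver. Groups without overlap were seen in 57.4% of all tested genes. Slc39a11, an importer of the Golgi, had a log2 change of 0.40 (adjusted p = 0.0454), a call lost in 12 of 17 alternatives. Slc39a9 had a log2 change of 0.10 (adjusted p = 0.358), and with the length trend removed it passed at 0.29 (adjusted p = 0.0287). The median over the 7 genes was 0.00.

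The exporters also differed among themselves. Slc30a10 (chromosome 1, 185454848 to 185468762), which encodes ZnT10, known chiefly as a manganese exporter of the hepatocyte, had 44.8, 43.2 and 36.5 CPM in I/R and 72.9, 67.5 and 59.4 CPM in I/R+Rk2. The lowest I/R+Rk2 liver stood well above the highest I/R liver. The log2 fold change was 0.68 (standard error 0.12, 95% interval 0.41 to 0.96, edgeR adjusted p = 0.00402). Slc30a7 (chromosome 3, 115938973 to 116007406, minus strand), which encodes ZnT7, a carrier that loads zinc into the Golgi, had 29.1, 31.5 and 27.7 CPM in I/R and 20.9, 19.0 and 20.9 CPM in I/R+Rk2. Its groups lay apart, with a log2 change of -0.54 (standard error 0.10, edgeR adjusted p = 0.00448). On the FPKM scale its groups overlapped, at 3.50, 3.36 and 2.95 in I/R and 2.15, 1.88 and 3.33 in I/R+Rk2. With limma on log2(FPKM + 1) the log2 fold change was -0.33 (adjusted p = 0.169), and with the length trend removed it was -0.21 (adjusted p = 0.197).

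Slc30a1 (chromosome 1, 191906767 to 191913247), which encodes ZnT1, the plasma membrane zinc exporter and a classical MTF-1 target, showed no detectable difference. It had 33.6, 38.9 and 42.0 CPM in I/R and 45.7, 39.2 and 33.4 CPM in I/R+Rk2. The groups overlapped fully, with the highest and the lowest liver both in I/R+Rk2. The log2 fold change was 0.05 with a 95% interval of -0.28 to 0.38 (edgeR adjusted p = 0.795), an interval that does not reach the change of Mt1 or Mt2. Its sign turned with library size alone, at -0.10, and with limma on log2(FPKM + 1), at -0.13. Slc30a1 and Slc30a10 share 468 and 533 exon bases with genes on the opposite strand. Slc30a7 shares 1165 with Gm6649 and 637 with Gm43106, both on the opposite strand.

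Of the other ZnT genes, 4 of 7 could be tested, of which 1 was higher and 2 were lower. Among all tested genes, 20.3% were higher and 23.7% lower. Slc30a5, which encodes a zinc carrier of the secretory pathway, went from 62.4 ± 2.99 to 34.4 ± 4.09 CPM (SD, n = 3), a log2 change of -0.86 (edgeR adjusted p = 0.00132). Slc30a4, which encodes an exporter into vesicles, went from 19.0 ± 1.17 to 9.54 ± 0.611 CPM, a log2 change of -1.0 (adjusted p = 0.000909). Slc30a6, the partner of Slc30a5, had a log2 change of 0.32 (adjusted p = 0.0409), a call lost in 15 of 17 alternatives. Slc30a9 had a log2 change of 0.03 (adjusted p = 0.814). The median over the 4 genes was -0.42. In the summed FPKM of the ZnT family, Slc30a5 held 34.6 ± 2.04% in I/R and 21.1 ± 1.99% in I/R+Rk2, and Slc30a10 held 12.5 ± 1.22% and 22.3 ± 2.50%.

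**Figure D4:**
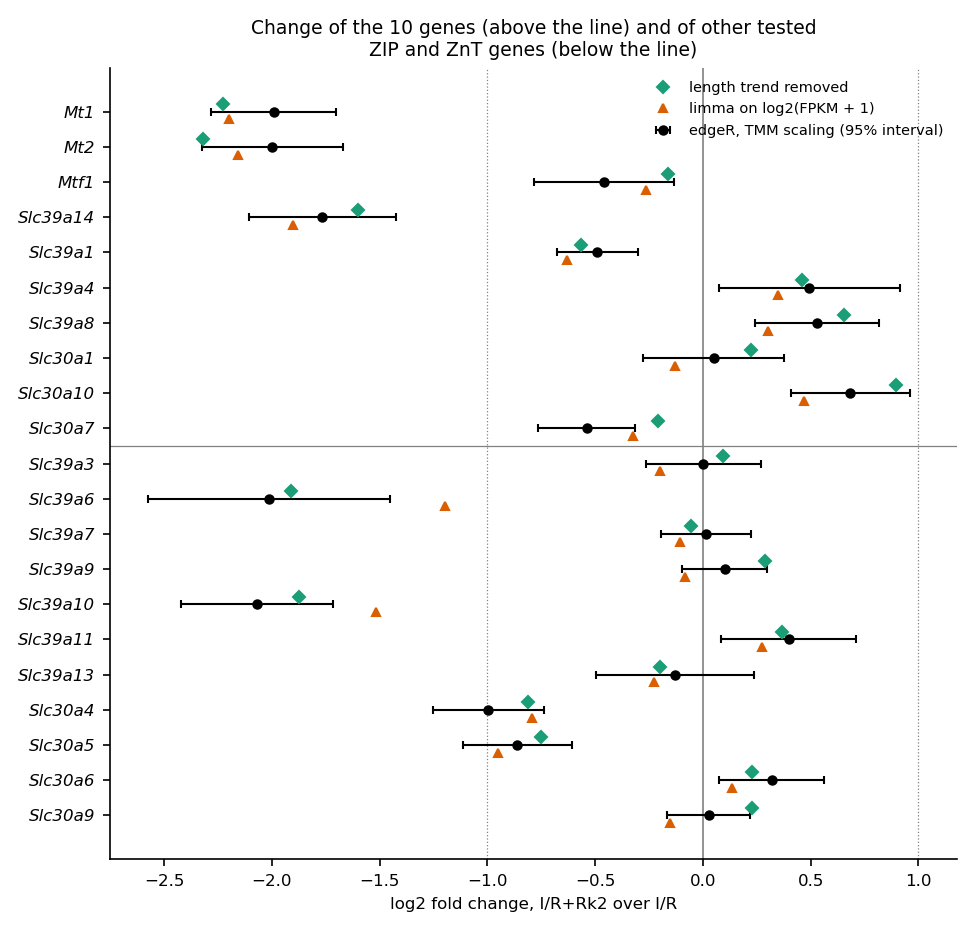
Log2 fold change of I/R+Rk2 over I/R for the 10 genes and for 11 other tested ZIP and ZnT genes, with 95% intervals from edgeR (circles), and values with the length trend removed (diamonds) or from limma on log2(FPKM + 1) (triangles). Dotted lines mark a fold change of 2. Mt1, Mt2, Slc39a14, Slc39a6 and Slc39a10 lie beyond it to the left under all 3 treatments.

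The order of the levels per length was similar at the top and changed lower down. By mean FPKM in I/R the order was Mt2, Mt1, Slc39a14, Slc39a1, Slc39a4, Slc30a1, Slc30a10, Mtf1, Slc39a8 and Slc30a7. Mt2 and Mt1 overlapped between livers, as did each neighbouring pair from Slc30a1 to Slc39a8. In I/R+Rk2 the order was Mt2, Mt1, Slc39a14, Slc39a4, Slc39a1, Slc30a10, Slc30a1, Slc39a8, Mtf1 and Slc30a7. There Slc39a4 overlapped Slc39a1 and Slc30a1 overlapped Slc39a8, whereas Mt2 and Mt1 did not overlap. Slc39a14 stood at 181 ± 29.9 FPKM in I/R and 47.6 ± 7.02 FPKM in I/R+Rk2 (SD, n = 3), clear of its neighbours in both groups.

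**Figure D5:**
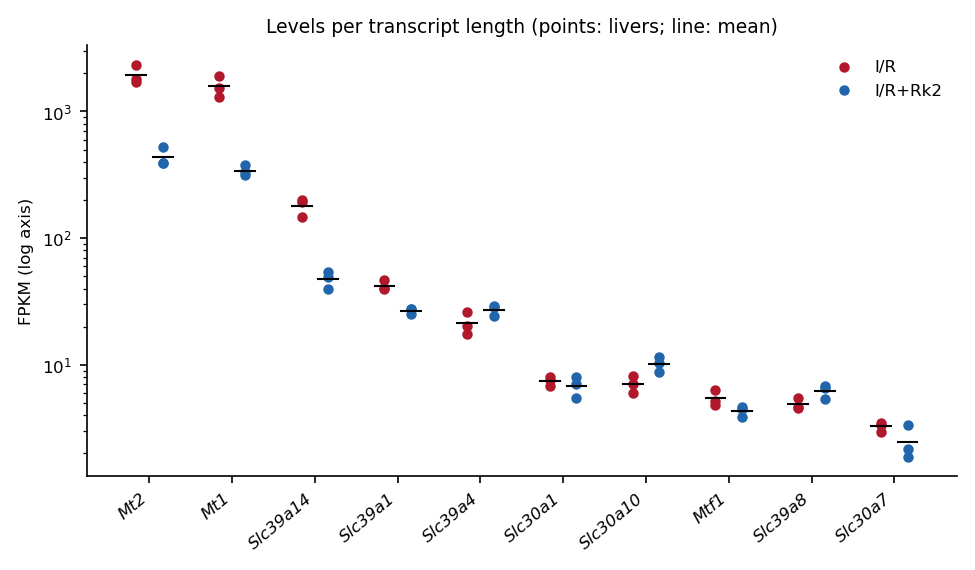
FPKM of the 10 genes on a log axis, ordered by mean level in I/R. Points are livers and lines are group means (n = 3). Mt2 and Mt1 stand at 1308 FPKM or more in every I/R liver and at 527 FPKM or less in every I/R+Rk2 liver.

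Fold changes in this comparison moved with transcript length. The median log2 fold change was 0.23 in the class of genes with the shortest transcripts, up to 1922 bases, and -0.25 in the class with the longest, out of 5 classes of equal size. Mt1 and Mt2, with longest transcripts of 1085 and 511 bases, belong to the shortest class and fell against its median. Mtf1 and Slc30a7, at 7631 and 9020 bases, belong to the longest class, and both lost their calls once the trend was removed. Slc30a10 and Slc30a1, at 5836 and 5244 bases, belong to that class too and went against its median. Their log2 changes were 0.68 and 0.05, and with the trend removed 0.89 and 0.22. With the trend removed Mt1 and Mt2 had log2 changes of -2.23 and -2.32, and Slc39a14 had -1.60.

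Genes of the signals known to drive metallothionein and Slc39a14 expression were examined as lists. Of 9 tested genes of interleukin-6 and STAT3 signalling, 6 were lower and 0 higher, beside 23.7% lower and 20.3% higher over all tested genes. The median log2 fold change of the list was -0.50. Il6, the cytokine itself, went from 4.61 ± 1.32 to 1.17 ± 0.425 CPM (SD, n = 3), a log2 change of -1.95 (edgeR adjusted p = 0.00421). Stat3, the transcription factor, had a log2 change of -0.76 (adjusted p = 0.00123). Jak2, among the kinases that can activate Stat3, had -1.06 (adjusted p = 0.00227), and Socs3, a feedback inhibitor of this signalling, had -0.49 (adjusted p = 0.00931). Each of these 4 genes was higher in every I/R liver than in any I/R+Rk2 liver. The groups did not overlap in 6 of the 9 genes of the list, against 57.4% of all tested genes.

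Of 8 tested genes of the glucocorticoid receptor and its targets, 2 rose and 3 fell, beside 20.3% higher and 23.7% lower over all tested genes. The median log2 change of the list was -0.04. Fkbp5, a chaperone partner of the receptor, went from 65.7 ± 23.1 to 24.1 ± 1.51 CPM (SD, n = 3), a log2 change of -1.45 (edgeR adjusted p = 0.00319). Per1, a clock gene, and Zbtb16, a transcription factor, had log2 changes of -0.56 (adjusted p = 0.00402) and -1.01 (adjusted p = 0.0128). Tsc22d3, also a receptor target, went the other way, with 47.6, 18.9 and 45.3 CPM in I/R and 49.2, 138 and 148 CPM in I/R+Rk2 (log2 fold change 1.59, adjusted p = 0.033), a call lost in 7 of 17 alternatives. I/R+Rk2 replicate 1 lay just above the I/R livers, while the other I/R+Rk2 livers stood far above them. With the replicate number as a block, 3 of the 8 passed in place of 5.

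Genes that handle copper, which metallothioneins also bind, and manganese, which ZIP14, ZIP8 and ZnT10 carry, were counted next. Of 10 tested copper genes, 5 rose and 1 fell, beside 20.3% higher and 23.7% lower over all tested genes, and the median log2 change was 0.45. Atp7b, the copper pump of the hepatocyte, rose by 0.97 on the log2 scale (edgeR adjusted p = 0.00148). Slc31a1, the copper importer, rose by 0.57 (adjusted p = 0.00233), and Ccs, the copper chaperone of superoxide dismutase, rose by 0.67 (adjusted p = 0.002). Atp7a, the copper pump of most other tissues, had 4.54, 3.63 and 6.18 CPM in I/R and 1.3, 1.42 and 1.41 CPM in I/R+Rk2, and its log2 change was -1.79 (adjusted p = 0.00191). Of 6 tested manganese genes, 1 was higher and 1 lower, with a median of -0.16. Slc11a2, a carrier of iron and manganese, had a log2 change of -0.63 (adjusted p = 0.00231), and Arg1, the manganese enzyme of the urea cycle, had 0.45 (adjusted p = 0.033), a call lost in 10 of 17 alternatives. Tmem165 and Sod2, a Golgi manganese carrier and the mitochondrial manganese superoxide dismutase, had log2 changes of -0.29 (adjusted p = 0.139) and -0.20 (adjusted p = 0.169), and Sod2 passed in 4 of 17 alternatives.

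Markers of other cell types moved with the same comparison. The counts stand beside 23.7% lower and 20.3% higher over all tested genes. Of 10 neutrophil markers, 8 were lower, and their summed level was 505 to 625 CPM in I/R and 94.7 to 225 CPM in I/R+Rk2. All 10 monocyte markers were lower, with a median log2 change of -4.10. Most of their sum was Fn1, the fibronectin gene, which had means of 1609 and 1150 CPM, and the other 9 summed to 365 to 439 CPM in I/R and 52.9 to 75.2 CPM in I/R+Rk2. Of 10 Kupffer cell markers 1 was lower (92.1 to 144 CPM against 75.8 to 92.7 CPM), and of 10 stellate cell markers 4 were lower (223 to 276 CPM against 169 to 210 CPM). Without Dcn, the most abundant stellate marker, the sums of the other 9 overlapped. They were 138 to 155 CPM in I/R and 102 to 141 CPM in I/R+Rk2. Endothelial markers were split, with 3 higher and 3 lower of 10, and without Cdh5, the most abundant, they summed to 174 to 187 CPM in I/R and 178 to 209 CPM in I/R+Rk2. Of 8 cholangiocyte markers 1 was higher and 3 lower. Spp1, the most abundant of them, had means of 162 and 70.6 CPM, and the other 7 summed to 43.1 to 50.8 CPM in I/R and 45.2 to 50.9 CPM in I/R+Rk2. Hepatocyte markers went the other way, with 5 of 9 higher and 0 lower, and without Alb, the albumin gene and the most abundant, the other 8 summed to 24307 to 28328 CPM in I/R and 35162 to 40190 CPM in I/R+Rk2. No marker was at 0 in all livers, and the part of these shifts in the changes of the 10 genes was not tested. In such bulk tissue, fewer cells of a type and less RNA per cell cannot be told apart.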

How the data were processed

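Liver RNA from 6 mice was sequenced from libraries made with 250 ng of RNA. Per the labels, the submitters' processing notes name FastQC 0.11.5, HISAT2 2.2.1, StringTie 1.3.3 and mm10. The authors deposited whole-number counts per gene and a table of FPKM. The annotation, the strand setting and how counts were derived were not given in the sources used here.

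Counts were filtered with filterByExpr, scaled by TMM and compared by the quasi-likelihood test of edgeR 4.0.16 (R 4.3.3) on 12411 genes, with Benjamini-Hochberg adjustment. FPKM were tested with limma 3.58.1 on log2(FPKM + 1), so fold changes of low genes are understated there. DESeq2 1.42.0, other scalings and filters, a replicate block, a length correction and leaving out each liver were alternatives. Positions were taken from GENCODE M21 (GRCm38, equal to mm10) and promoters from RefSeq. On simulated counts of 12263 genes with 100 changed genes per size, 87 of those changed 4-fold and 57 of those changed 2-fold were recovered. The changed genes were a far smaller share there than the 43.9% that passed in the livers. The adjusted p depends on that share, so these recoveries do not carry over directly. Libraries of a group differed by more than sampling noise. Limits set by 3 counts cover counting error only.

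The genes and lists were chosen with earlier results of these data known. Of each list, at most the 4 genes with the smallest p were named, plus any other metallothionein, ZIP or ZnT gene with an adjusted p below 0.05.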

Additional observations from a re-analysis of the deposited data

How the results depend on the processing

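Mt1, Mt2, Slc39a14 and Slc39a1 kept their direction and their call in all 17 alternatives, with adjusted p of at most 0.0031, 0.0031, 0.0039 and 0.0181. The count of genes passing split into 53.9% lower with TMM and 72.5% lower with library size alone, and the genes passing with a fold above 2 numbered 901 with limma on log2(FPKM + 1) and 921 without its filter, against 1813. Of the 10 genes, 5 passed with limma on log2(FPKM + 1), 5 with log2(FPKM + 0.1) and 4 without the filter, and 7 to 9 when a liver was left out. In those 3 FPKM fits, in that order, log2 fold changes were -0.26, -0.31 and -0.26 for Mtf1, 0.30, 0.35 and 0.30 for Slc39a8, and -0.33, -0.44 and -0.33 for Slc30a7, none passing, and Slc30a10 did not pass in the last at 0.47 (adjusted p = 0.0613). Slc30a1 turned to -0.13, -0.145 and -0.13, Slc39a9 to -0.084, -0.091 and -0.084, Slc30a9 to -0.15, -0.17 and -0.15, Csrp1 to -0.0056 in each, and Ndrg1 to -0.12, -0.13 and -0.12. With library size alone, Slc39a8 had 0.36 without passing, and Slc30a1, Slc39a9, Slc30a9, Csrp1 and Ndrg1 turned to -0.10, -0.064, -0.14, -0.016 and -0.090. With the length trend removed, Mtf1 had -0.16 and Slc30a7 -0.21 without passing, Slc39a9 passed at 0.29, Sod2 turned to 0.0078, and 1 of the manganese genes passed. Sod2 passed in the 3 FPKM fits and under scaling by library size, at -0.353 to -0.346, and Arg1 lost its call in those 4, with the length trend removed and when any liver but I/R+Rk2 replicate 1 was left out (0.31 to 0.52 over all 6). Tsc22d3 lost its call with the block, in the unfiltered FPKM fit and when any liver but I/R+Rk2 replicate 1 was left out (1.27 to 1.94 over all 6).

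Slc39a4 passed with upper-quartile scaling at 0.55 (adjusted p = 0.0442), with DESeq2 at 0.51 and with the replicate block at 0.52 (adjusted p = 0.0494). Same-numbered livers did not deviate together over all genes (correlations -0.056, 0.005 and -0.058), so no pairing by number was seen. Correlations over all genes cannot exclude a pairing that touches few genes. With the replicate block, 4713 genes passed, and 3 of the glucocorticoid genes. Leaving out each liver gave Mtf1 -0.54 to -0.31 (call lost without I/R replicate 1, I/R replicate 3, I/R+Rk2 replicate 2 or I/R+Rk2 replicate 3), Slc39a4 0.34 to 0.70 (passing without I/R replicate 2), Slc30a1 -0.079 to 0.16, Slc30a9 -0.013 to 0.071, Csrp1 -0.0085 to 0.21, Ndrg1 -0.065 to 0.32, 3 to 5 glucocorticoid genes (3 without I/R replicate 1, 2 or 3 or I/R+Rk2 replicate 2) and 1 to 2 manganese genes (1 when any liver but I/R+Rk2 replicate 1 was left out). The difference in the Mt1 share was 0.34 percentage points from counts, and -1.61 to 0.43 when a liver was left out. The cause of these differences was not tested.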
